A study of Mus musculus with 18 samples.

Results

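Cells that pass from rest to proliferation make large amounts of new protein, and the chaperones that fold it are the subject here. The set holds 40 genes: the Hsp90 and Hsp70 families with their co-chaperones, small heat shock proteins, the cytosolic chaperonin TRiC with its partner prefoldin, and the mitochondrial Hsp60, Hsp10, Hsp70 and Hsp90 chaperones. The rule that picks them uses gene names only. Of the 40 genes 38 had a probe set that the annotation of the array assigns to a single symbol, out of 18194 such gene symbols. Hsp90ab1 was matched to no probe set and Ptges3 only to probe sets that also name the pseudogene Ptges3-ps, so both were not analysed here. Each gene was represented by its brightest probe set. Most members act in the cytosol, but Hspa9, Hspd1, Hspe1 and Trap1 encode mitochondrial proteins and Dnajb9 and Dnajc3 encode proteins of the endoplasmic reticulum, and these are described apart.

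RNA came from cells sorted by immunoreactivity to syndecan-3, a surface proteoglycan of satellite cells, the stem cells of skeletal muscle. They were isolated from the tibialis anterior of female mice of 3 to 6 months, either uninjured (0 h) or 12 h or 48 h after injection of 1.2% barium chloride. Wild type mice were C57Bl/6 x DBA2 and Sdc4-/- mice, which lack syndecan-4, were C57Bl/6, so that effects of genotype and strain cannot be told apart. Every group went through collagenase digestion, sorting and 2 rounds of linear amplification of RNA from 5000 cell equivalents, and 3 arrays were made in each of the 6 groups. One uninjured wild type array, left out by the authors and taken here to be replicate 3, was also left out here, which leaves 17 arrays and 2 in the uninjured wild type group. Whether each array came from other animals is not stated, so p-values measure the spread between these arrays, and the number of arrays limits their precision.

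Molecular chaperones bind proteins that are not yet folded or that have lost their fold. Hsp70 proteins do this in cycles of ATP hydrolysis that J proteins start and exchange factors such as Hsp110 and Bag proteins complete. Clients may then pass to Hsp90 through co-chaperones. Actin and tubulin instead pass from prefoldin into TRiC, a closed chamber of paired rings. Many of these genes are induced by heat shock factor 1, which binds inverted repeats of a short unit, the heat shock element.

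Promoter sequences were available in RefSeq (GRCm38.p6) for 34 members, as 45 windows of 300 bases, 250 before each annotated start and 50 after it. They were searched for 2 inverted units of the heat shock element, GAANNTTC or TTCNNGAA, and for 3, GAANNTTCNNGAA or TTCNNGAANNTTC, which together cover both strands, and each match of 3 units also holds one of 2. A match of 2 units lay in windows of 15 members, in 17 of the 45 windows and in 15.1% of all 32851 promoter windows. Matches of 3 units were found in 6 of the 45 windows and in 0.603% of all windows, and belonged to Dnajb6, Hsph1, Hspd1 and Hspe1. Hspd1 and Hspe1, the mitochondrial Hsp60 and its partner Hsp10, are transcribed in opposite directions from annotated starts 216 bases apart, so that 285 of the 300 bases of their windows are the same. The stretches below are shown because they carry such matches, written in capitals, next to genes whose values are given in the following paragraphs. They run 5' to 3' on the strand named, with chromosome, start and end on GRCm38.p6, and each lies upstream of the annotated start of the named gene. A match describes these letters and does not show that a factor bound there.
Hspe1 and Hspd1, chr1:55088008-55088127, plus strand: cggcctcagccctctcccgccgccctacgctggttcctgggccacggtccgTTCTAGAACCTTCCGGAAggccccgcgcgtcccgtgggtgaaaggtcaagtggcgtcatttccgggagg
Dnajb6, chr5:29735798-29735897, plus strand: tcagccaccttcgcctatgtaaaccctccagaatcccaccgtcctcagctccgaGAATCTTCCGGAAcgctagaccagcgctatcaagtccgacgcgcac
Hspa1b, chr17:34959279-34959378, minus strand: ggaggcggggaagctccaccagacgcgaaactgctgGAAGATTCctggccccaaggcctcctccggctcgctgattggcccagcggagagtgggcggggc
In the first stretch the match begins 89 bases before the annotated start of Hspe1 and the capitals hold 2 overlapping matches of 3 units, and in the second 46 bases before that of Dnajb6. The third holds a match of 2 units, 104 bases before the annotated start of Hspa1b. Hspa1a, the neighbouring copy of the inducible Hsp70 gene, has the same 100 bases at chr17:34972197-34972296, and 296 of 300 bases of the 2 windows are identical. The match in Hsph1 begins 15 bases after its annotated start.

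The arrays differed in ways that bear on every value below. Hybridization controls, bacterial transcripts spiked in at fixed amounts, averaged a log2 value of 7.86 and 8.94 on the uninjured wild type arrays, 13.54 to 14.30 at 12 h and 11.68 to 12.50 at 48 h, and 8.74 to 12.33 on the 9 Sdc4-/- arrays. Between 2832 and 3982 probe sets exceeded a log2 value of 5 on the wild type 12 h arrays, against 5076 to 7864 on the others used. Wild type 12 h replicate 2 had the lowest 3' Actb control, at 3.98, where the other arrays used lay between 8.37 and 13.38. Sdc4, the deleted gene, read 4.08 and 5.20 in uninjured wild type cells, 3.71 to 4.20 at 12 h and 6.88 to 8.11 at 48 h, and 3.39 to 6.53 in Sdc4-/- cells. Whether its probes lie in the deleted part is not given in the sources used here. Sdc3, the sorting marker, ranged from 4.25 to 7.33. Pax7, the defining factor of satellite cells, read 5.15 and 4.59 in uninjured wild type cells and at most 2.79 on every other array used, and Myod1 was under 4 on all of them.

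Markers of other cell types moved with time and genotype. The mean over 8 macrophage and monocyte markers was 5.48 and 8.48 on the uninjured wild type arrays, 3.22 to 4.67 at 12 h and 9.69 to 9.86 at 48 h, and 8.07 to 10.17 on the Sdc4-/- arrays. At 12 h in wild type cells 3 of the 8 fell, as did 5 of 7 endothelial, 3 of 6 fibroblast, 4 of 6 smooth muscle and pericyte, 5 of 12 satellite cell and 1 of 7 neutrophil markers, and 0 of 6 muscle fibre markers (limma). In that comparison 44.6% of the genes averaging a log2 value of 4 or more were lower, and 20.8% of all genes, so several of these counts are near the background. The means of the endothelial list lay between 6.06 and 7.68 in uninjured wild type cells and between 3.00 and 3.83 after injury, and those of the fibroblast list were 7.68 and 8.41 before injury and 3.08 to 4.67 after it. At 48 h 5 of 7 endothelial, 4 of 6 fibroblast and 4 of 6 smooth muscle and pericyte markers were lower in wild type cells, against 1 in each of these lists in Sdc4-/- cells, and 2 of 8 macrophage and monocyte markers were higher in wild type cells. The satellite cell list was mixed at 48 h in wild type cells. Of its 12 markers 4 were lower (Pax7, Myf5, Cd34 and Chodl) and 2 higher (Sdc4 and Cdh15). In Sdc4-/- cells 0 of the 12 were called at 48 h (limma). Among genes averaging 4 or more, 14.2% were lower and 5.18% higher at 48 h in wild type cells, and 3.68% were lower in Sdc4-/- cells. Of the defining markers, Pecam1 stayed under 4 on every array. The part of these cells in the chaperone values was not tested, and in sorted bulk RNA fewer cells of a type and less RNA per cell cannot be told apart.

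**Figure D1:**
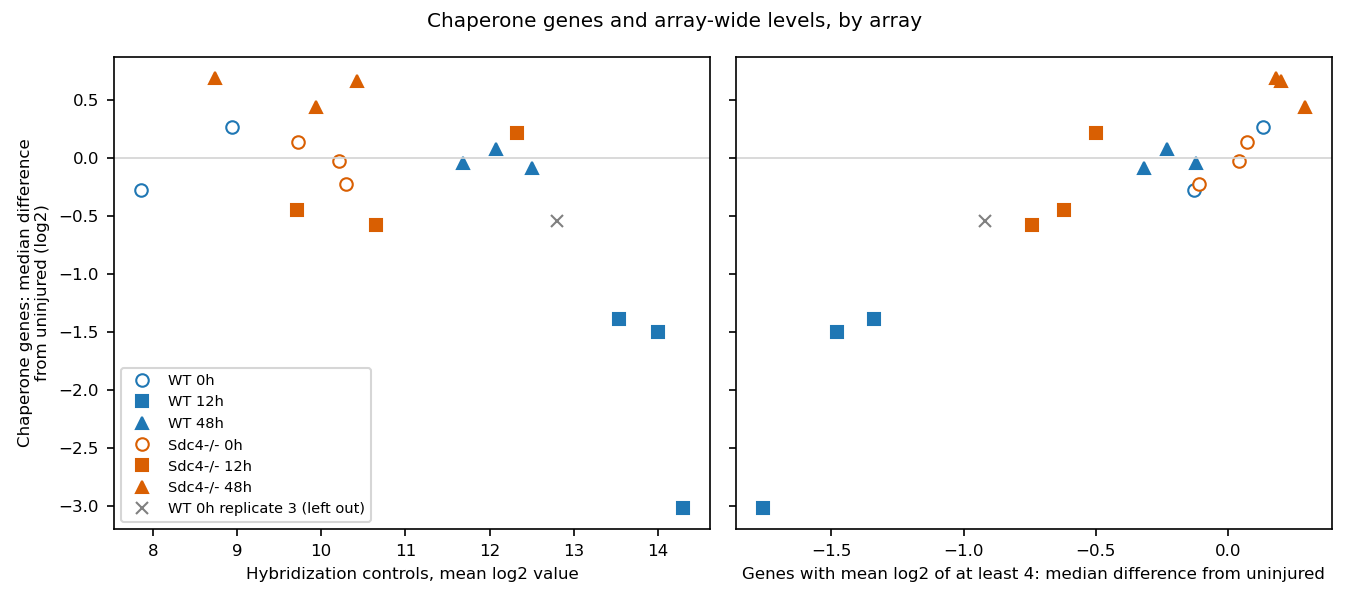
Each point is 1 array. The vertical axis gives the median over the 38 chaperone genes of the log2 value minus the uninjured mean of the same genotype, against the average log2 value of the hybridization controls (left) and against the same median over the 6279 genes that average 4 or more (right). The 3 wild type 12 h arrays lie lowest, from -3.01 to -1.38, where the controls are brightest and where those 6279 genes are also lowest, from -1.76 to -1.34.

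In wild type cells 12 h after injury, chaperone genes were broadly lower than in uninjured cells, and so were most expressed genes on the same arrays. Of 38 members 17 fell and 0 rose (limma, adjusted p under 0.05 over all 45101 probe sets; 22 were lower and 0 higher at an unadjusted p under 0.05). The median log2 change was -1.87. Over all probe sets 14.2% were called lower and 23.3% higher, with a median of 0.15. Over the 6279 genes whose log2 values average 4 or more (expressed genes below), a level that 35 of the 38 members reach, 44.6% were called lower and 3.34% higher, with a median of -1.56. The members' 17 of 38 is thus close to the share among expressed genes. A further quantile normalization left 10 lower and 2 higher, and moved the median over all probe sets from 0.15 to 0.05. With the hybridization controls as a covariate no member was called (0 lower), and without wild type 0 h replicate 1 there were 11. Over all 18 arrays 13 were called, and without wild type 12 h replicate 2 there were 15. The controls averaged 7.86 to 8.94 on the wild type 0 h arrays used and 13.54 to 14.30 at 12 h. A fit with them as a covariate therefore cannot separate the controls from the 12 h change, and its lost calls decide nothing on this point.

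The same comparison in Sdc4-/- cells called 1 member lower, Pfdn5, against 5.15% of all probe sets and 14.8% of expressed genes, with a median of -0.31 over the members and -0.63 over expressed genes. Aligning the arrays at their 75th percentile gave 3 lower and 2 higher here, and the quantile normalization 0 lower and 1 higher, while leaving out single arrays gave 0 to 2, and 8 of the 17 arrays moved the count off 1. The 12 h change was more negative in wild type than in Sdc4-/- cells for 8 members, tested as a difference of changes, against 4.37% of all probe sets and 12.9% of expressed genes. These were Ahsa1, Dnaja2, Dnajb4, Dnajb6, Cct3, Cct5, Vbp1 and Hspa9, and the median difference was -1.56 over the members and -0.80 over expressed genes. The count was 0 with the hybridization controls as a covariate, 3 over all 18 arrays, 4 without wild type 0 h replicate 1 and 5 without wild type 0 h replicate 2, Sdc4-/- 0 h replicate 1 or Sdc4-/- 12 h replicate 2. Direct comparison at 12 h showed 14 members higher in Sdc4-/- than in wild type cells, with a background of 5.47% of all probe sets and 24.1% of expressed genes. They were the same 8 and Dnajb9, Dnajc3, Bag3, Cct6a, Cct7 and Cct8. In uninjured cells 0 of the 38 differed between genotypes (limma; 1 lower and 1 higher at an unadjusted p under 0.05).

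By 48 h the chaperones no longer moved one way. In wild type cells 5 members were lower than in uninjured cells, Hspb1, Hspb8, Bag3, Pfdn5 and Hspe1, and 1 was higher, Stip1. Among all probe sets 7.12% were lower and 5.35% higher, and among expressed genes 14.2% and 5.18%. Over the members the median was 0.06. Leaving out any of 10 of the 17 arrays, from the wild type and the Sdc4-/- groups, brought the 5 down to 2 or 3, and the alignment at the 75th percentile, under which the median over all probe sets was 0.43 in place of 0.11, gave 5 lower and 6 higher. Sdc4-/- cells at 48 h had 1 member lower, Hspb1, and 4 higher, Ahsa1, Stip1, Cct8 and Pfdn4, where 2.31% of all probe sets were lower and 2.18% higher and 3.68% and 5.16% of expressed genes. Quantile normalization left 1 lower and 2 higher. Tested as a difference of the 48 h changes, 0 members differed between genotypes (limma; 4 lower and 0 higher at an unadjusted p under 0.05), where 2.92% of all probe sets and 4.94% of expressed genes were called lower. From 12 h to 48 h 13 members rose in wild type cells, Ahsa1, Stip1, Dnaja2, Dnajb4, Dnajb6, Dnajc7, Cct3, Cct5, Cct6a, Cct7, Vbp1, Pfdn4 and Hspa9, and of these Ahsa1, Stip1, Dnajb6 and Pfdn4 also rose in Sdc4-/- cells. For that step 5.74% of all probe sets and 26.3% of expressed genes rose in wild type cells, and for Sdc4-/- cells the shares were 5.28% and 17.8%.

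**Figure D2:**
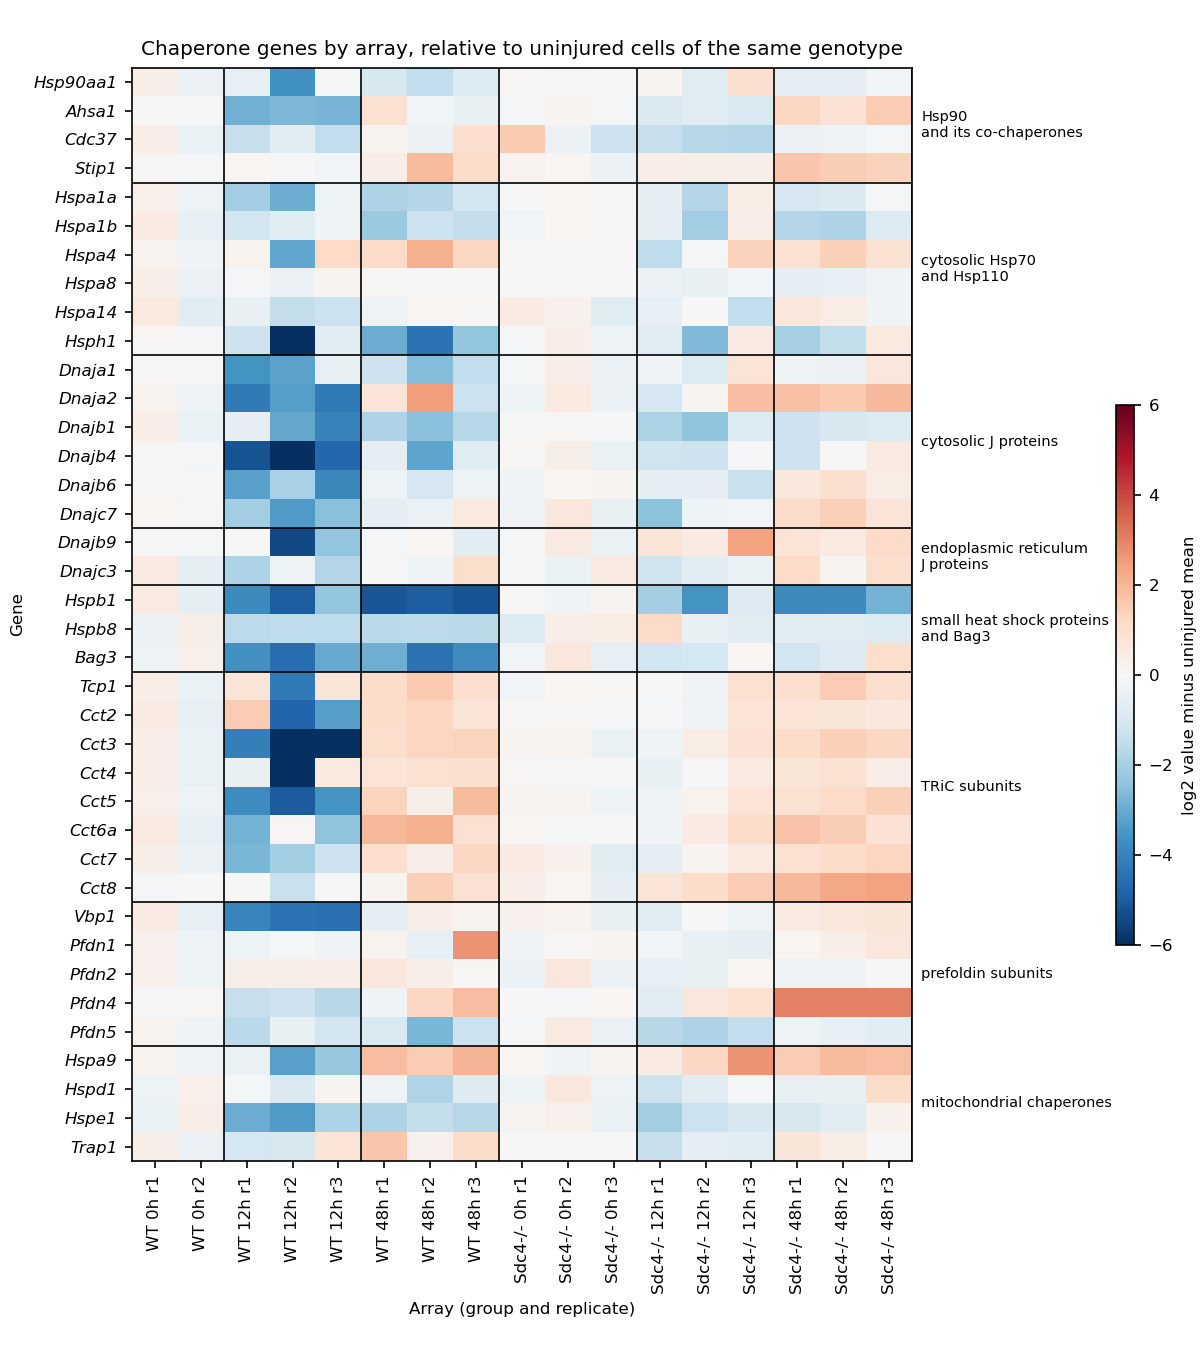
Rows are the 38 chaperone genes by role and columns the 17 arrays by group, with r for replicate. Colour gives the log2 value minus the uninjured mean of the same genotype (red higher, blue lower), and differences beyond 6 are drawn at 6. Blue prevails in the wild type 12 h columns, Hspb1 is blue at 48 h in both genotypes, and the TRiC rows are red at 48 h in both.

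The 2 small heat shock proteins and Bag3 were all lower at both 12 h and 48 h in wild type cells, and Hspb1 was also lower at 48 h in Sdc4-/- cells. Of expressed genes 44.6% were lower at 12 h and 14.2% at 48 h in wild type cells, and 3.68% at 48 h in Sdc4-/- cells. Hspb1 (Hsp27) is an actin-binding small heat shock protein, and Hspb8 works with Bag3 to send damaged proteins to autophagy, a route known from contracting muscle. Hspb1 read 11.74 and 10.67 on the uninjured wild type arrays, 7.40, 6.27 and 8.86 at 12 h and 6.09, 6.25 and 6.04 at 48 h, and 10.08, 9.77 and 10.20 on the uninjured Sdc4-/- arrays, 7.98, 6.45 and 9.24 at 12 h and 6.22, 6.21 and 7.20 at 48 h. Every injured array lay below every uninjured array of its genotype. In wild type cells the log2 change was -3.69 (standard error 0.77, adjusted p = 0.00298) at 12 h and -5.08 (standard error 0.77, adjusted p = 0.00127) at 48 h, the latter 33.8-fold lower. Sdc4-/- cells gave -2.13 (standard error 0.69, adjusted p = 0.0965), which did not pass the test, and -3.47 (standard error 0.69, adjusted p = 0.0115). Both 48 h calls held in 27 of 27 other settings (other ways to scale, fit or pick probe sets, the controls as a covariate, and each array left out in turn). Endothelial, fibroblast and smooth muscle markers were lower on the same wild type arrays, as given above. On the Sdc4-/- arrays the endothelial list averaged 4.86 to 5.79 before injury and 3.06 to 4.44 at 48 h. There the fibroblast list averaged 4.81 to 6.64 and 3.05 to 5.03, and the smooth muscle and pericyte list 5.95 to 7.77 and 4.33 to 6.36. The part of these cells was not tested in either genotype. A further probe set of Hspb1 had group means of 10.68, 6.60 and 4.02 at 0, 12 and 48 h in wild type cells, and in Sdc4-/- cells of 9.23, 6.43 and 4.94. Genotypes did not differ past the threshold in either change (-1.56, adjusted p = 0.345, and -1.60, adjusted p = 0.437).

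Bag3 read 7.94 and 8.55 on the uninjured wild type arrays, 4.60, 3.67 and 5.23 at 12 h and 5.30, 3.83 and 4.46 at 48 h. All 6 injured wild type arrays lay below both uninjured ones, with changes of -3.75 (standard error 0.69, adjusted p = 0.00144) and -3.72 (standard error 0.69, adjusted p = 0.00459). On the Sdc4-/- arrays Bag3 read 6.99, 7.84 and 6.65 before injury, 6.02, 6.10 and 7.26 at 12 h and 6.00, 6.37 and 8.21 at 48 h, and these groups overlapped. The genotypes' changes differed by -3.04 at 12 h (adjusted p = 0.0559) and by -3.41 at 48 h (adjusted p = 0.0628), neither past the threshold, and over all 18 arrays the 48 h call in wild type cells was lost. Hspb8 was near the floor of the arrays: it read 3.88 and 4.55 in uninjured wild type cells and 2.61 to 2.68 on the 6 injured arrays. Its wild type changes were -1.54 (standard error 0.47, adjusted p = 0.0222) at 12 h and -1.59 (standard error 0.47, adjusted p = 0.0446) at 48 h, and the 48 h call held in 9 of 26 other settings.

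**Figure D3:**
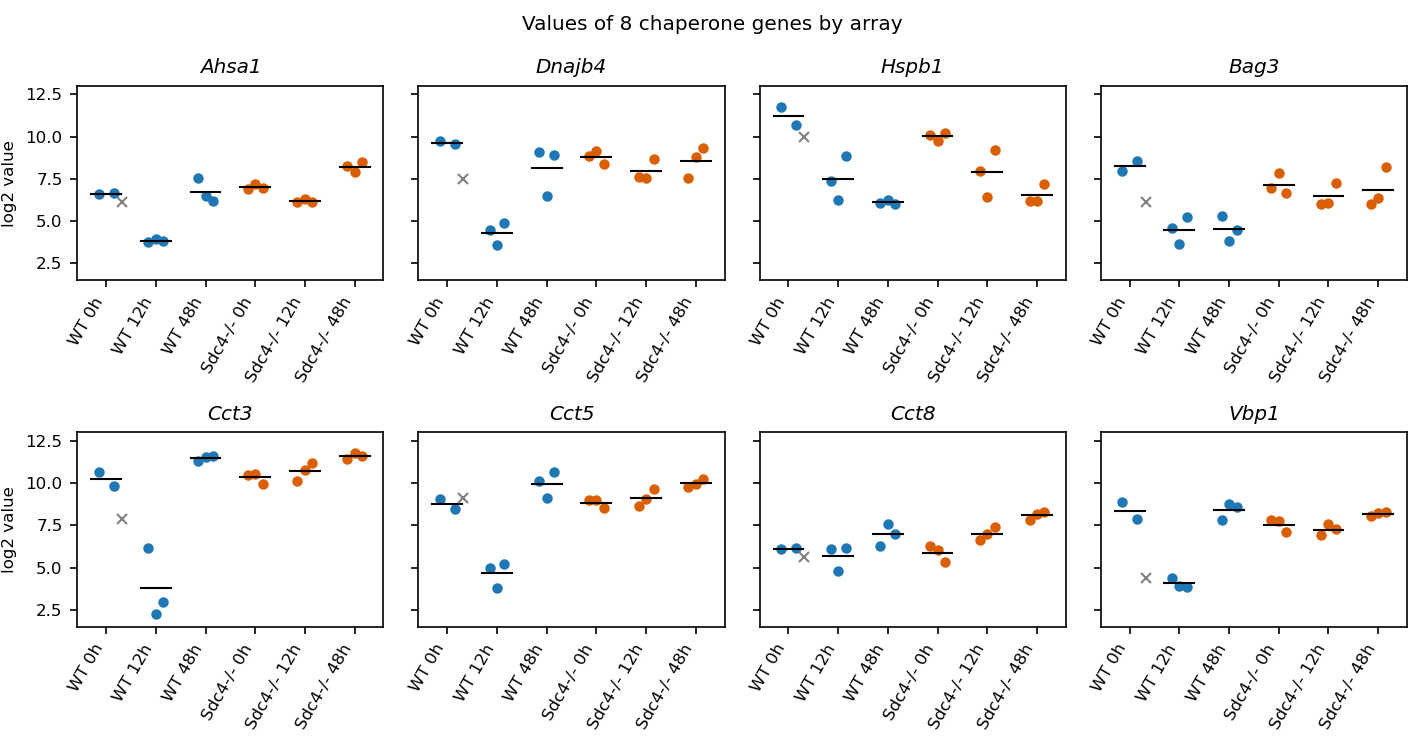
Each point is the log2 value of 1 array for the gene named above the panel, in wild type (blue) and Sdc4-/- cells (orange), with black lines at group means over the arrays used and a grey cross for the left-out wild type 0 h replicate 3. Hspb1 steps down with time in both genotypes, while Ahsa1, Dnajb4, Cct3, Cct5 and Vbp1 are lowest in the wild type 12 h group and higher again at 48 h, where Cct3 reads 11.34 to 11.60.

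TRiC, the chaperonin for actin and tubulin, had 48 h estimates above 0 for the brightest probe sets of all 8 subunits in each genotype. In wild type cells the 48 h changes ran from 0.84 to 1.67 with a median of 1.13, and in Sdc4-/- cells from 0.68 to 2.21 with a median of 1.17. Over expressed genes the medians were -0.24 and 0.22, and 43.6% and 59.8% of estimates were above 0. Single subunits mostly missed the threshold: 0 of 8 were called in wild type cells (limma, 2 higher at an unadjusted p under 0.05) and 1 of 8, Cct8, in Sdc4-/- cells (3 at an unadjusted p under 0.05). All 8 stayed above 0 in both genotypes under quantile normalization, with medians of 0.87 and 0.96, and under the alignment at the 75th percentile, which called 4 of them higher in wild type cells. With the controls as a covariate, and with the probe sets of each gene averaged, 7 of 8 were above 0 in wild type cells. A dimmer probe set of Cct7 went the other way in wild type cells, by -1.08 (adjusted p = 0.198). In Sdc4-/- cells it changed by 1.35 (adjusted p = 0.151), and the genotype difference was -2.43 (adjusted p = 0.0752). The other dimmer probe sets of these subunits with a mean of at least 4 had estimates above 0 in both genotypes. The 8 subunits assemble into one complex and were measured on the same arrays, so their signs are not separate observations.

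Cct8 encodes the theta subunit. Cct8 read 6.08 and 6.17 on the uninjured wild type arrays, 6.13, 4.79 and 6.14 at 12 h and 6.30, 7.57 and 7.02 at 48 h, and 6.28, 6.02 and 5.34 on the uninjured Sdc4-/- arrays, 6.63, 6.97 and 7.41 at 12 h and 7.81, 8.18 and 8.28 at 48 h. The 48 h arrays lay above the uninjured ones in both genotypes, with changes of 0.84 (standard error 0.45, adjusted p = 0.248) in wild type cells, not past the threshold, and 2.21 (standard error 0.40, adjusted p = 0.00725) in Sdc4-/- cells, which held in 27 of 27 other settings. The difference of these changes, -1.37, did not pass the test (adjusted p = 0.254).

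By their brightest probe sets 3 of the 8 subunits fell in wild type cells at 12 h (37.5%, against 44.6% of expressed genes), Cct3, Cct5 and Cct7. Cct3 read 10.69 and 9.86 on the uninjured wild type arrays, 6.17, 2.25 and 2.96 at 12 h and 11.34, 11.54 and 11.60 at 48 h. The lowest 2 of these 12 h values are near the floor of the arrays, and the change was -6.48 (standard error 0.83, adjusted p = 0.00012). In Sdc4-/- cells Cct3 read 10.50, 10.56 and 9.94 before injury, 10.12, 10.77 and 11.19 at 12 h and 11.45, 11.77 and 11.60 at 48 h, with a 12 h change of 0.36 (standard error 0.74, adjusted p = 0.82), and the difference between genotypes was -6.84 (standard error 1.11, adjusted p = 0.00291). Cct5 read 9.08 and 8.47 on the uninjured wild type arrays, 5.0, 3.80 and 5.21 at 12 h and 10.10, 9.15 and 10.66 at 48 h, a change of -4.11 (standard error 0.48, adjusted p = 6.57e-05) at 12 h. Its 9 Sdc4-/- values lay between 8.52 and 10.27, all above the 3 wild type 12 h values, and the genotypes differed by -4.38 (standard error 0.64, adjusted p = 0.00171). The calls for Cct3 and Cct5 in this difference held in 26 of 27 other settings each and were lost only with the controls as a covariate. Cct7 read 9.31 and 8.57 before injury and 6.22, 6.92 and 7.68 at 12 h, a change of -2.00 (standard error 0.47, adjusted p = 0.0064) that turned to 0.26 after quantile normalization. Cct6a, at 9.66 and 8.63 before and 6.32, 9.20 and 6.73 after 12 h, had an estimate of -1.73 (standard error 0.72, adjusted p = 0.0761) and did not pass the test, though it did without wild type 12 h replicate 2 (-2.62, adjusted p = 0.00235).

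The other subunits, Tcp1, Cct2 and Cct4, had 12 h estimates from -2.28 to -0.91 in wild type cells with wide errors. At 12 h Cct4 read 10.55, 3.98 and 11.55, Tcp1 8.91, 3.91 and 8.86 and Cct2 12.42, 6.15 and 7.60. The lowest value of each is replicate 2, the array with the low Actb control, and for Cct2 replicate 3 was low as well. Without replicate 2 the Cct4 change was 0.07 in place of -2.28, and 3 of the 8 subunits had estimates above 0. With replicate 2 included, dimmer probe sets of Cct4 were called lower at 12 h in wild type cells (-2.51, adjusted p = 0.012, and -2.92, adjusted p = 0.0338). So was a dimmer probe set of Cct2 (-3.48, adjusted p = 0.0315). Another of Cct4 (-0.29, adjusted p = 0.109) and another of Cct2 (-1.9, adjusted p = 0.117) were not. From 12 h to 48 h all 8 estimates of the brightest probe sets were above 0 in wild type cells, with a median of 3.20. Of these 4 were called (Cct3, Cct5, Cct6a and Cct7).

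**Figure D4:**
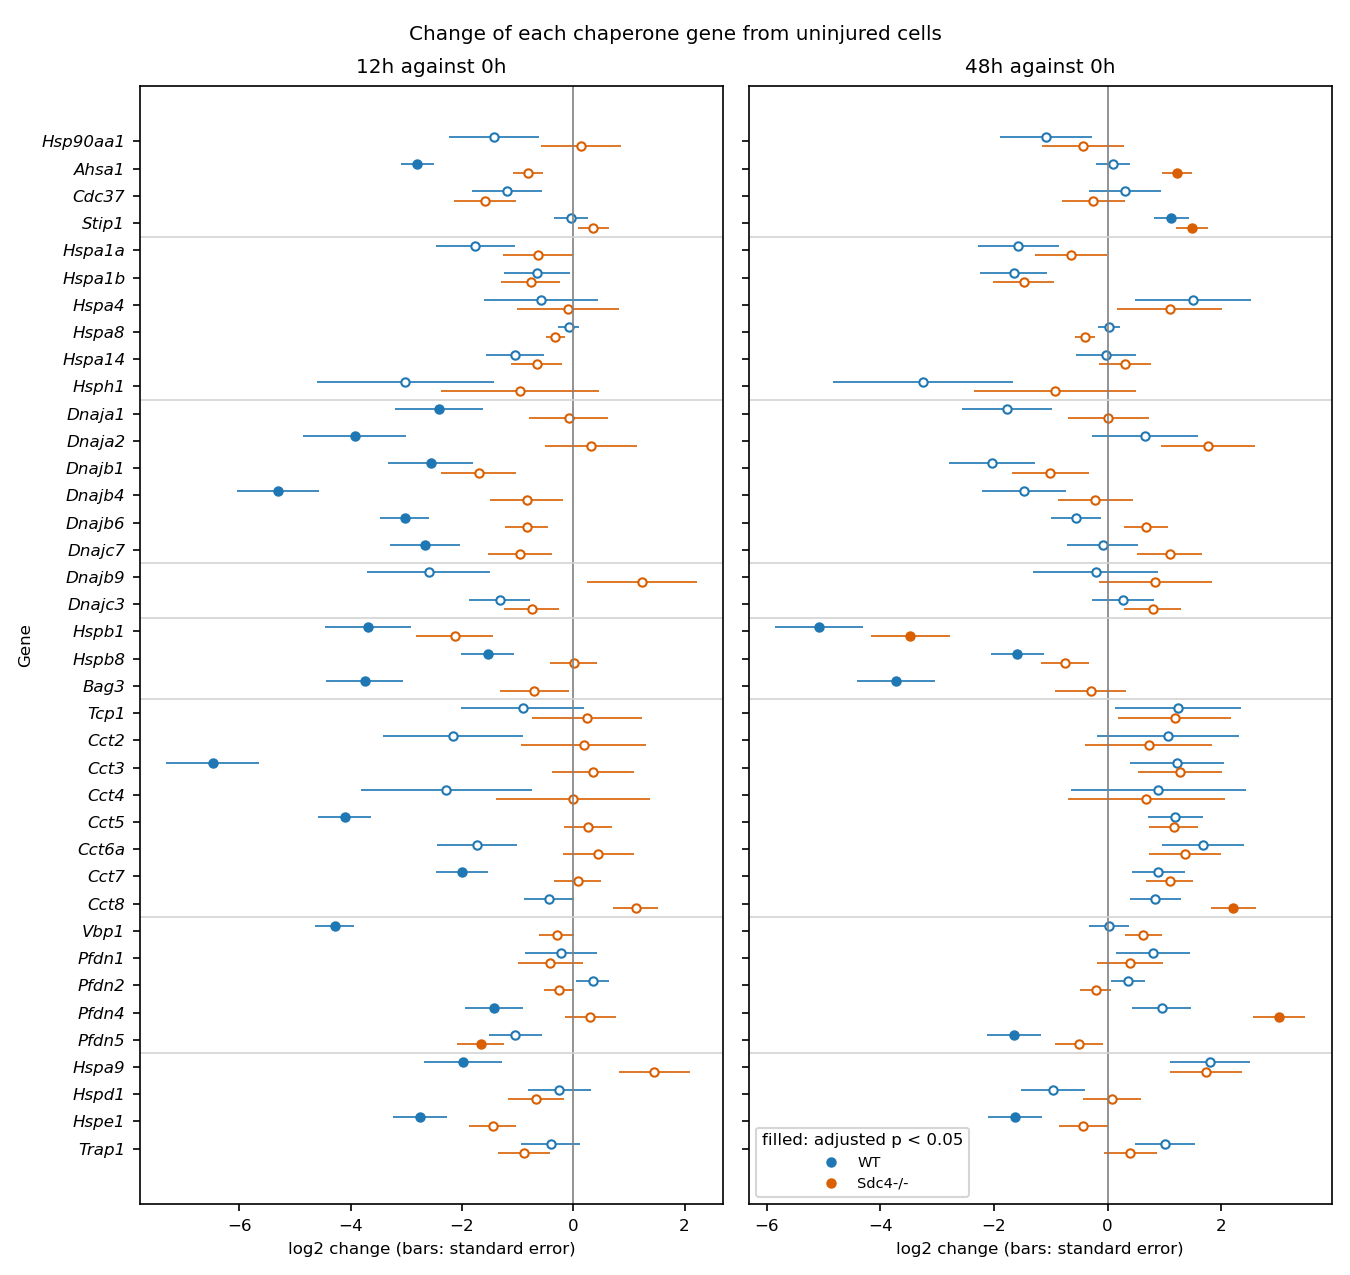
For each chaperone gene the log2 change from uninjured cells at 12 h (left) and 48 h (right) is drawn for wild type (blue) and Sdc4-/- cells (orange), with bars of 1 standard error and filled points where the adjusted p was under 0.05. Each point stands for the brightest probe set of its gene. At 48 h the 8 TRiC subunits, from Tcp1 to Cct8, all lie to the right of 0 in both genotypes, between 0.68 and 2.21. The lowest points are those of Hspb1 and Bag3 in wild type cells and Hspb1 in Sdc4-/- cells.

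Prefoldin hands unfolded actin and tubulin to TRiC, and its subunits did not move together. Vbp1 (prefoldin 3) was first among the members by adjusted p in the wild type 12 h comparison. Vbp1 read 8.88 and 7.87 on the uninjured wild type arrays, 4.41, 3.94 and 3.88 at 12 h and 7.80, 8.79 and 8.58 at 48 h, so that the 12 h arrays stood clear of all others. The change was -4.29 (standard error 0.35, adjusted p = 8.99e-06) at 12 h, 19.6-fold lower, and 0.02 at 48 h (adjusted p = 0.975). Sdc4-/- cells gave 7.83, 7.74 and 7.09 on the uninjured Sdc4-/- arrays, 6.92, 7.57 and 7.26 at 12 h and 8.03, 8.25 and 8.27 at 48 h, a 12 h change of -0.30 (standard error 0.32, adjusted p = 0.636), and the difference between genotypes was -3.99 (standard error 0.47, adjusted p = 0.000497). That call held in 25 of 27 other settings, and was lost over all 18 arrays, where wild type 0 h replicate 3 reads 4.40, and with the controls as a covariate.

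Pfdn4 read 4.92 and 5.02 on the uninjured wild type arrays, 3.61, 3.72 and 3.30 at 12 h and 4.73, 6.20 and 6.83 at 48 h, and 3.94, 3.87 and 4.07 on the uninjured Sdc4-/- arrays, 3.29, 4.64 and 4.87 at 12 h and 6.96, 6.98 and 7.0 at 48 h. The 3 Sdc4-/- 48 h values span 6.96 to 7.0 and lie far above the others of that genotype, a change of 3.02 (standard error 0.46, adjusted p = 0.00261) that held in 27 of 27 other settings. In wild type cells it changed by -1.43 (standard error 0.52, adjusted p = 0.0473) at 12 h, a call that held in 9 of 27 settings, and by 0.95 at 48 h (adjusted p = 0.257), and the genotypes did not differ past the threshold at 48 h (-2.07, adjusted p = 0.131). Pfdn5, also known as a Myc-binding protein, read 8.38 and 7.93 in uninjured wild type cells, 6.56, 7.73 and 7.06 at 12 h and 7.23, 5.42 and 6.89 at 48 h. It read 8.07, 8.73 and 7.83 on the uninjured Sdc4-/- arrays, 6.54, 6.38 and 6.73 at 12 h and 7.89, 7.72 and 7.54 at 48 h. It fell by 1.66 in Sdc4-/- cells at 12 h (adjusted p = 0.0346, held in 17 of 27 settings) and by 1.65 in wild type cells at 48 h (adjusted p = 0.0396, held in 12 of 27). Its wild type 12 h change of -1.04 did not pass the test (limma, adjusted p = 0.1). A dimmer probe set of Pfdn5 changed in wild type cells by -2.40 (adjusted p = 0.00128) at 12 h but by -0.51 (adjusted p = 0.481) at 48 h. In Sdc4-/- cells this probe set changed by -2.02 (adjusted p = 0.00823) at 12 h. Pfdn2 stayed between 3.10 and 4.67 on the arrays used and Pfdn1 estimates ran from -0.41 to 0.80 in these 4 comparisons, and neither passed a test.

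Cytosolic J proteins, which start the ATP cycle of Hsp70, fell in wild type cells at 12 h by their brightest probe sets, 6 of 6, against 44.6% of expressed genes, with changes from -5.31 to -2.41. After quantile normalization 3 of the 6 calls were lost, those of Dnaja1 (-0.88, adjusted p = 0.368), Dnajb6 (-1.33, adjusted p = 0.315) and Dnajc7 (-1.05, adjusted p = 0.245), and over all 18 arrays those of Dnaja2, Dnajb6 and Dnajc7 were. In Sdc4-/- cells 0 of 6 were called at 12 h (limma, 1 lower at an unadjusted p under 0.05), and the 6 estimates ran from -1.70 to 0.32. A dimmer probe set of Dnajb1 was called there, however, as given below. Dnajb4 read 9.72 and 9.54 on the uninjured wild type arrays, 4.45, 3.60 and 4.91 at 12 h and 9.11, 6.46 and 8.91 at 48 h. The 12 h values lie below all others of the genotype, a change of -5.31 (standard error 0.74, adjusted p = 0.000221). Its Sdc4-/- values were 8.84, 9.15 and 8.37 on the uninjured Sdc4-/- arrays, 7.61, 7.56 and 8.67 at 12 h and 7.56, 8.82 and 9.34 at 48 h, and the difference between genotypes was -4.47 (standard error 0.99, adjusted p = 0.0138).

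Dnajb6, which keeps aggregation-prone proteins soluble and is mutated in a limb-girdle muscular dystrophy, carries one of the matches printed above. Dnajb6 read 8.05 and 7.96 on the uninjured wild type arrays, 4.72, 6.04 and 4.15 at 12 h and 7.69, 7.01 and 7.68 at 48 h, a 12 h change of -3.03 (standard error 0.44, adjusted p = 0.00029). Sdc4-/- arrays ranged from 6.50 to 8.78, and the genotypes differed by -2.19 (standard error 0.59, adjusted p = 0.0328), which held in 15 of 27 settings. Dnaja2 read 7.42 and 7.01 on the uninjured wild type arrays, 2.96, 3.93 and 2.98 at 12 h and 8.0, 9.71 and 5.91 at 48 h. The wild type 48 h values spread widely, and the 12 h change was -3.93 (standard error 0.93, adjusted p = 0.00637). In Sdc4-/- cells it read 6.98, 7.83 and 6.88 before injury, 6.21, 7.38 and 9.06 at 12 h and 9.01, 8.79 and 9.18 at 48 h, and its difference of -4.25 (standard error 1.25, adjusted p = 0.0478) held in 7 of 27 settings. Dnajc7, which shuttles clients between Hsp70 and Hsp90, read 7.96 and 7.74 before injury and 5.75, 4.46 and 5.34 at 12 h, a change of -2.67 (standard error 0.63, adjusted p = 0.00651). Dnaja1 and Dnajb1, the major stress-inducible J protein, changed by -2.41 (adjusted p = 0.0312) and -2.56 (adjusted p = 0.0196) and by these probe sets had estimates of -1.77 and -2.03 at 48 h that did not pass the test, though both did after quantile normalization (-2.31, adjusted p = 0.0489, and -2.79, adjusted p = 0.00855). Without wild type 12 h replicate 2 the calls for Dnaja1 (adjusted p = 0.0908) and Dnajb1 (adjusted p = 0.0557) were lost, and Dnaja1 held in 20 of 27 and Dnajb1 in 22 of 27 other settings.

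Other probe sets of these 2 genes gave more calls. A dimmer one of Dnajb1 changed in wild type cells by -4.58 (adjusted p = 9.14e-05) at 12 h and -2.46 (adjusted p = 0.0135) at 48 h, and in Sdc4-/- cells by -1.96 (adjusted p = 0.0362) and -2.09 (adjusted p = 0.0328), with a genotype difference at 12 h of -2.62 (adjusted p = 0.0433). Of Dnaja1, 2 dimmer ones changed in wild type cells at 12 h by -5.48 (adjusted p = 0.00023) and -4.94 (adjusted p = 0.000637), with genotype differences of -7.43 (adjusted p = 0.00131) and -4.63 (adjusted p = 0.0172). At 48 h they gave -2.51 (adjusted p = 0.0524) and -3.0 (adjusted p = 0.0306) in wild type cells, and neither was called in Sdc4-/- cells. By contrast, other probe sets of Dnajb4 and Dnaja2 with a mean of at least 4 gave no call (limma). For the wild type 12 h change, that of Dnajb4 had an estimate of -2.12 (adjusted p = 0.137). Those of Dnaja2 had -1.52 (adjusted p = 0.136) and -0.09 (adjusted p = 0.895). Genotype differences at this time were -1.21 (adjusted p = 0.606) for Dnajb4, and -0.65 (adjusted p = 0.704) and -0.22 (adjusted p = 0.847) for Dnaja2.

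Among the Hsp70 and Hsp110 members different probe sets of 1 gene disagreed. By the brightest probe set 0 of 6 passed the test in any of the 4 comparisons with uninjured cells (limma; at an unadjusted p under 0.05, 1 was lower in wild type cells at 12 h, 2 at 48 h in each genotype and 0 in Sdc4-/- cells at 12 h). Hspa8, the constitutive Hsc70, read 14.05 to 14.85 on all 17 arrays by this probe set, near the top of the scale. Of its 3 other probe sets, 2 with means of 11.61 and 11.08 were not called at 12 h in wild type cells, with -1.68 (adjusted p = 0.132) and -2.96 (adjusted p = 0.112). The dimmest had group means of 6.85, 4.42 and 4.85 in wild type cells and a 12 h change of -2.43 (limma, adjusted p = 0.0072), and in Sdc4-/- cells its 12 h change was -2.75 (adjusted p = 0.00778). Its 48 h changes were -2.0 (adjusted p = 0.0443) in wild type and -1.74 (adjusted p = 0.0955) in Sdc4-/- cells. Those of the other 2 were -0.02 and -0.09 in wild type cells and were not called. For the inducible Hspa1b the brightest probe set gave -0.65 at 12 h (adjusted p = 0.409), and 2 others -4.08 (adjusted p = 0.024) and -2.77 (adjusted p = 0.0415). Since Hspa1a and Hspa1b are nearly identical in their transcribed parts as well, probes for one may bind the other, and the 2 cannot be separated here.

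Hspa1a read 13.21 and 12.61 on the uninjured wild type arrays, 10.85, 9.95 and 12.65 at 12 h and 11.08, 11.17 and 11.76 at 48 h. The 12 h values of this inducible Hsp70 overlap the uninjured ones, and the change was -1.76 (standard error 0.71, adjusted p = 0.0685). Hspa1b read 14.21 and 13.19 on the uninjured wild type arrays, 12.62, 13.08 and 13.46 at 12 h and 11.48, 12.42 and 12.26 at 48 h, and 13.50, 13.82 and 13.73 on the uninjured Sdc4-/- arrays, 13.11, 11.60 and 14.06 at 12 h and 11.91, 11.83 and 12.85 at 48 h. At 48 h all arrays of both genotypes were below their uninjured arrays, with changes of -1.65 (standard error 0.59, adjusted p = 0.093) and -1.48 (standard error 0.53, adjusted p = 0.172) that did not pass the test. A dimmer probe set of Hspa1b was called lower at 48 h in wild type cells (-3.37, adjusted p = 0.0419), and another was not (-3.65, adjusted p = 0.0808). Neither was called in Sdc4-/- cells. After quantile normalization the brightest probe sets of Hspa1b (-2.29, adjusted p = 0.0333) and Hspa1a (-2.31, adjusted p = 0.0247) passed the test at 48 h in wild type cells. Hsph1 read 12.20 and 12.07 on the uninjured wild type arrays, 10.87, 5.0 and 11.47 at 12 h and 9.13, 7.71 and 9.82 at 48 h. Hsph1, the Hsp110 exchange factor, thus had 1 very low array at 12 h, again replicate 2, and its change of -3.02 (standard error 1.59, adjusted p = 0.15) became -0.96 without it, while its 48 h change of -3.25 (adjusted p = 0.206) then passed the test (adjusted p = 0.0377). A dimmer probe set of Hsph1 had wild type group means of 6.73, 3.24 and 3.16. It was called lower there at 12 h (-3.49, adjusted p = 0.017) and at 48 h (-3.57, adjusted p = 0.0365). In Sdc4-/- cells it was called at neither time (-1.07, adjusted p = 0.544, and -0.54, adjusted p = 0.999). Hspa14, which acts at the ribosome, had an estimate of -1.05 (standard error 0.52, adjusted p = 0.127), and Hspa4 one of -0.58 (adjusted p = 0.681).

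Across the set, 100 probe sets belong to the 38 genes, and 67 of them had a mean of at least 4. Of these 67, 35 were lower and 0 higher in wild type cells at 12 h, where 42.3% of the 9962 probe sets at this level were lower and 4.36% higher, and 20 genes had more than 1. For 9 genes the brightest probe set was not called at 12 h but another was: Cct2, Cct4, Dnajc3, Hsp90aa1, Hspa14, Hspa1b, Hspa8, Hsph1 and Pfdn5. Among the 33 probe sets under 4, where values have little order, 9 were called higher and 1 lower, against 28.6% and 6.28% of all 35139 such probe sets.

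**Figure D5:**
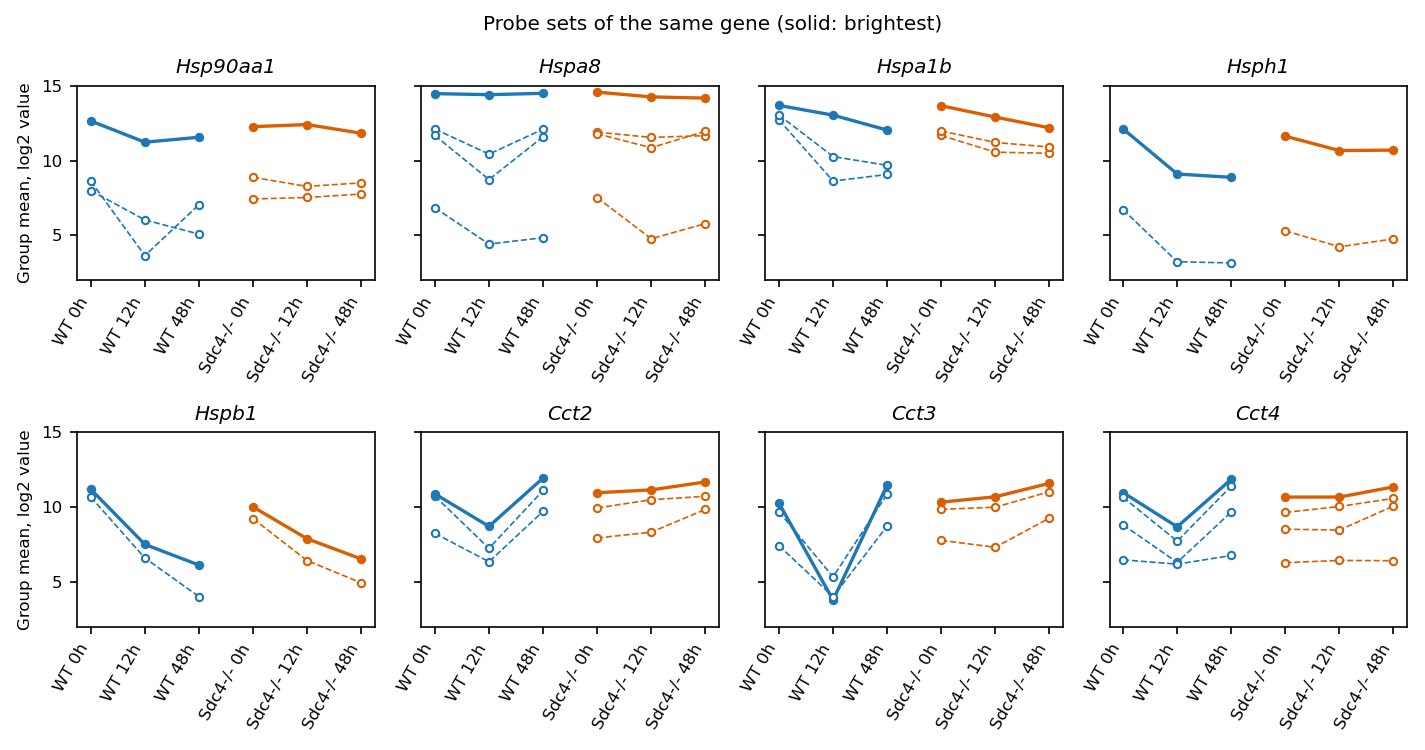
For 8 chaperone genes, points give the group mean log2 value of each probe set with a mean of at least 4, joined over time within wild type (blue) and Sdc4-/- cells (orange), solid for the brightest probe set and dashed for the rest. The solid Hspa8 line is flat near 14.4 while its lowest probe set goes from 6.85 to 4.42 at 12 h in wild type cells, whereas the probe sets of Hspb1 and Cct3 run alike.

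Hsp90 and its co-chaperones held 1 faller at 12 h and 2 genes that rose at 48 h. Ahsa1 (Aha1), the activator of the Hsp90 ATPase, fell at 12 h in wild type cells and rose above its uninjured level at 48 h in Sdc4-/- cells. Ahsa1 read 6.61 and 6.65 on the uninjured wild type arrays, 3.76, 3.92 and 3.82 at 12 h and 7.55, 6.46 and 6.19 at 48 h, and 6.92, 7.17 and 6.94 on the uninjured Sdc4-/- arrays, 6.16, 6.30 and 6.11 at 12 h and 8.25, 7.90 and 8.53 at 48 h. Replicates were tight at 12 h, and the change was -2.80 (standard error 0.30, adjusted p = 4.21e-05) in wild type and -0.82 (standard error 0.27, adjusted p = 0.104) in Sdc4-/- cells, with a difference of -1.98 (standard error 0.40, adjusted p = 0.00911). At 48 h Ahsa1 was above its uninjured level in Sdc4-/- cells, by 1.22 (standard error 0.27, adjusted p = 0.0219), which held in 20 of 27 other settings and was lost without Sdc4-/- 0 h or 48 h replicate 1 or 3, and higher there than in wild type 48 h cells by 1.5 (standard error 0.27, adjusted p = 0.00824). The difference in the 48 h change itself, -1.12, did not pass the test (adjusted p = 0.16).

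Stip1 (Hop), the adaptor that joins Hsp70 to Hsp90, read 3.68 and 3.58 in uninjured wild type cells, 3.73, 3.57 and 3.47 at 12 h and 4.02, 5.53 and 4.71 at 48 h. Its Sdc4-/- values were 3.55, 3.47 and 3.00 on the uninjured Sdc4-/- arrays, 3.74, 3.70 and 3.67 at 12 h and 4.99, 4.80 and 4.71 at 48 h. The 48 h arrays lay above all earlier ones in each genotype, with rises of 1.12 (standard error 0.31, adjusted p = 0.0353) and 1.49 (standard error 0.28, adjusted p = 0.00866) from a level near the floor of the arrays. The wild type call held in 19 of 26 settings and the Sdc4-/- call in 25 of 26. Hsp90aa1, the stress-inducible Hsp90, read 12.99 and 12.33 before injury, 12.16, 9.01 and 12.55 at 12 h and 11.72, 11.18 and 11.82 at 48 h, and neither its 12 h change of -1.42 (adjusted p = 0.182) nor its 48 h change of -1.09 (adjusted p = 0.406) passed the threshold, the latter except after quantile normalization (-1.79, adjusted p = 0.0248). A second probe set of the gene changed by -4.98 at 12 h (limma, adjusted p = 0.00232), from a group mean of 8.63 to 3.65. Cdc37, which brings kinases to Hsp90, read 5.11 and 4.31 before injury and 3.31, 4.01 and 3.24 at 12 h in wild type cells, with no call in either genotype.

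Of the mitochondrial chaperones Hspa9 and Hspe1 fell at 12 h in wild type cells. Hspe1 read 8.01 and 8.77 on the uninjured wild type arrays, 5.43, 4.99 and 6.50 at 12 h and 6.56, 6.98 and 6.72 at 48 h, changes of -2.75 (standard error 0.48, adjusted p = 0.000951) and -1.63 (standard error 0.48, adjusted p = 0.0434), of which the later call held in 12 of 27 other settings. After quantile normalization neither was called, and the 12 h change was -0.90 (adjusted p = 0.245). In Sdc4-/- cells Hspe1 read 7.94, 8.06 and 7.37 before injury, 5.71, 6.49 and 6.83 at 12 h and 6.85, 7.17 and 8.06 at 48 h, and its 12 h change of -1.45 (standard error 0.43, adjusted p = 0.0687) did not pass the test. Hspd1, which shares the promoter region printed above, read 9.96 and 10.56 before injury and 10.21, 9.40 and 10.41 at 12 h, a change of -0.25 (standard error 0.57, adjusted p = 0.753), so that the probe sets of this pair differ in their calls. Whether the 2 changes differ was not tested.

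Hspa9 read 8.40 and 7.96 on the uninjured wild type arrays, 7.78, 4.94 and 5.90 at 12 h and 10.03, 9.69 and 10.23 at 48 h, and 8.42, 8.02 and 8.45 on the uninjured Sdc4-/- arrays, 8.77, 9.52 and 10.98 at 12 h and 9.81, 10.18 and 10.10 at 48 h. Hspa9 (mortalin), the mitochondrial Hsp70, changed in wild type cells at 12 h by -1.98 (standard error 0.70, adjusted p = 0.0424), a call that held in 7 of 27 settings and came to -0.07 after quantile normalization, while the Sdc4-/- change was 1.46 (standard error 0.63, adjusted p = 0.217). The difference of -3.44 (standard error 0.94, adjusted p = 0.035) held in 13 of 27 settings. At 48 h every array of both genotypes lay above its uninjured arrays, by 1.80 (adjusted p = 0.118) and 1.73 (adjusted p = 0.176), neither past the threshold. Trap1, the mitochondrial Hsp90, had an estimate of -0.40 at 12 h (adjusted p = 0.569).

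Of the J proteins of the endoplasmic reticulum, Dnajb9 read 9.88 and 9.78 on the uninjured wild type arrays, 9.81, 4.42 and 7.46 at 12 h and 9.74, 9.97 and 9.13 at 48 h. The 12 h change of this target of the unfolded protein response was -2.60 (standard error 1.10, adjusted p = 0.0822) in wild type and 1.23 (standard error 0.99, adjusted p = 0.524) in Sdc4-/- cells, and its level at 12 h was higher in Sdc4-/- cells by 3.45 (standard error 0.99, adjusted p = 0.0307). Dnajc3, an inhibitor of the kinase Perk, had an estimate of -1.32 (standard error 0.55, adjusted p = 0.0792), which passed the test without wild type 12 h replicate 2 (-1.82, adjusted p = 0.0199), and was higher in Sdc4-/- cells at 12 h by 1.80 (standard error 0.50, adjusted p = 0.0259).

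Beyond the 40 genes, 55 further genes of the folding pathway were measured, among them Hsf2, Hsf4, other J and Bag proteins and tubulin cofactors. Heat shock factor 1 was not among them. Of the 55 genes 20 fell and 2 rose in wild type cells at 12 h (36.4% and 3.64%, against 44.6% and 3.34% of expressed genes), with a median of -1.22. In Sdc4-/- cells 9 fell (16.4%, against 14.8%) and 0 rose (limma; 15 and 0 at an unadjusted p under 0.05). At 48 h 5 fell and 2 rose in wild type cells (9.09% and 3.64%, against 14.2% and 5.18%), and 3 fell and 1 rose in Sdc4-/- cells (5.45% and 1.82%, against 3.68% and 5.16%). The 55 were not filtered by level, and some, such as Hsf2 and Hspbp1, had every group mean under 4. Over all 18194 genes, 1 probe set each, 20.8% were lower and 19.6% higher at 12 h in wild type cells, and 7.23% lower in Sdc4-/- cells. The 48 h shares were 9.39% and 5.47% in wild type cells, and 2.59% and 2.65% in Sdc4-/- cells. Lowest in adjusted p at 12 h was Txndc9, which binds TRiC, with wild type group means of 8.13, 3.61 and 9.65 at 0, 12 and 48 h and a 12 h change of -4.53 (standard error 0.37, adjusted p = 9.01e-06). Tbca, which receives tubulin after TRiC, had means of 10.46, 5.45 and 11.05 and changed by -5.02 (standard error 0.87, adjusted p = 0.000964). Both had genotype differences past the threshold, -4.09 (adjusted p = 0.000608) and -4.56 (adjusted p = 0.0268).

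Dnaja4, a J protein of muscle and other tissues, fell and stayed low in both genotypes. Its wild type means were 6.51, 3.25 and 2.89, changes of -3.26 (standard error 0.33, adjusted p = 2.88e-05) and -3.63 (standard error 0.33, adjusted p = 3.72e-05), and it fell by 1.59 at 12 h (adjusted p = 0.00659) and by 1.93 at 48 h (adjusted p = 0.00253) in Sdc4-/- cells. Of the rest, Dnajc5, a J protein of secretory vesicles, changed by -5.20 (standard error 0.75, adjusted p = 0.000273), Dnajc8 by -5.37 (standard error 0.89, adjusted p = 0.00071) and the ribosome-bound Dnajc2 by -2.80 (standard error 0.50, adjusted p = 0.00116) in the wild type 12 h comparison. These 3 had 48 h means of 8.02, 9.84 and 7.13, against 8.76, 9.84 and 6.45 in uninjured cells.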

How the data were processed

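The authors sorted syndecan-3+ cells, amplified their RNA by T7 transcription and hybridized it to Affymetrix mouse GeneChips (MOE430v2), 3 for each of 6 groups. Per the labels, intensities were read in GCOS and normalized by GCRMA. The deposited values are log2 GCRMA values for 45101 probe sets, and versions of those programs are not given in the sources used here. They were used without further scaling. No detection calls were used, so values of about 2 to 4 have little order. Groups are genotype and time as labelled. The authors removed 1 uninjured wild type array without giving its number in the text, and it was taken to be replicate 3 from the arrays they show.

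One limma fit of the 6 groups (limma 3.58.1, R 4.3.3, lmFit and eBayes) on 17 arrays gave all comparisons, on 11 residual and 1.2 prior degrees of freedom. P-values were adjusted by Benjamini and Hochberg over the 45101 probe sets. A call is an adjusted p under 0.05, and a genotype difference is the wild type change minus the Sdc4-/- change. Of the probe sets 34958 have 1 symbol, 932 several and 9211 none. "Expressed genes" are the 6279 symbols whose brightest probe set has a mean of at least 4. The members, role groups, the other pathway genes and the marker lists were chosen with earlier results of these data known. Values per array are given, within each role group, for up to 4 members of lowest adjusted p in the wild type 12 h comparison, for members called against their group and for those with a genotype difference, and 6 other pathway genes are named, those lowest in the same adjusted p. The fit was tested on simulated data. Replicate numbers did not pair the arrays: of 40 pairs with the same number 2 correlated above 0.1 (range -0.133 to 0.172). The mean of 18 hybridization-control probe sets served as a covariate in one alternative.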

Additional observations from a re-analysis of the deposited data

Results flagged for a closer look

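A test of the difference between the genotypes' 12 h changes (wild type change minus Sdc4-/- change, limma, adjusted over all 45101 probe sets) picked out 8 members, and in each the change was the more negative one in wild type cells. On the log2 scale the differences were -1.98 for Ahsa1, -4.25 for Dnaja2, -4.47 for Dnajb4, -2.19 for Dnajb6, -6.84 for Cct3, -4.38 for Cct5, -3.99 for Vbp1 and -3.44 for Hspa9. All 8 rest on the wild type 12 h arrays, on which the hybridization controls were brightest, and on 2 uninjured wild type arrays. They also rest on the brightest probe set of each gene. Other probe sets of Dnaja2, Dnajb4, Cct3 and Hspa9 averaging 4 or more were not called in this test. With the controls as a covariate 0 of the 8 were called. The controls of the wild type 0 h and 12 h arrays used did not overlap, so that fit could not separate them from the change.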

How the results depend on the processing

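Of the comparisons of single members under settings other than leaving out an array, 2108 stayed on their side of the threshold. Another 97 lost and 54 gained a call, and 3 changed sign with a call in either fit. These 3 were estimates at 12 h in wild type cells after a further quantile normalization, 0.26 for Cct7, 1.55 for Cct8 and 1.90 for Trap1. With single arrays left out 3729 stayed on their side, 110 lost and 37 gained a call and 0 changed sign with a call. Sign changes without a call in either fit are counted as staying. Examples in wild type cells at 12 h are Cct6a, from -1.73 to 0.32 after quantile normalization, and Cct4, from -2.28 to 0.07 without wild type 12 h replicate 2. The 17 members lower in wild type cells at 12 h became 11 with only the compared groups fitted, 10 (with 2 higher) after quantile normalization, 0 with the hybridization controls as a covariate and 11 to 17 with an array left out. The 5 lower and 1 higher at 48 h became 1 and 0 over all 18 arrays, 1 and 0 with the covariate, 3 lower with only the compared groups, 6 higher with the arrays aligned at their 75th percentile, 0 higher among probe sets averaging 4 or more, and 2 to 5 lower and 0 to 3 higher with an array left out. For Sdc4-/- cells at 12 h the 1 lower became 0 over all 18 arrays, with a trended and robust prior, after quantile normalization (1 higher) and with the covariate, 2 with only the compared groups, 3 with the 75th percentile (2 higher), 3 among probe sets averaging 4 or more, 3 with averaged probe sets (1 higher), and 0 to 2 with an array left out. At 48 h the 1 lower became 2 with only the compared groups and with averaged probe sets, and the 4 higher became 11 with only the compared groups and 2 after quantile normalization. The 8 with a genotype difference at 12 h became 3 over all 18 arrays, 4 with averaged probe sets, 0 with the covariate and 4 to 10 with an array left out, and the 0 at 48 h became 1 among probe sets averaging 4 or more and 0 to 1 with an array left out, the 1 without wild type or Sdc4-/- 48 h replicate 1. The causes were not tested. Where 1 uninjured wild type array is left out, its partner is taken to vary as arrays of the other groups do. With replicate number as a block 18 members were lower at 12 h and 5 at 48 h in wild type cells, 1 and 1 in Sdc4-/- cells and 7 and 0 in the genotype differences, and the numbers did not pair the arrays. Values near the floor of the arrays, as for Stip1 and Hspb8, limit what can be seen.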

Other observations

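The left-out uninjured wild type array, replicate 3, had log2 values of 2.96 for Dnaja2, 4.08 for Dnajb6 and 4.40 for Vbp1, near those of the wild type 12 h arrays, and of 9.13 for Cct5, 7.50 for Dnajb4 and 9.98 for Hspb1, nearer the other uninjured arrays. Cct3 read 7.90 on it, between both groups. Its hybridization controls averaged 12.80.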
